A study of Mus musculus with 6 samples.

Results

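The 10 immediate early genes described here are Fos, Fosb, Jun, Junb, Egr1, Atf3, Klf2, Klf6, Zfp36 and Nfkbia, taken by name from a table of 52542 mouse genes, in which all 10 were found. They were followed in islets of Langerhans by MARS-seq, in which single cells are sorted into plates and each captured mRNA is counted once through a molecular barcode (UMI). Male mice carried Sox9-CreER and a tdTomato reporter, received tamoxifen (8 mg) from the age of 10 weeks over 2 weeks, and had a sham operation or a partial pancreatectomy (ppx) at 12 weeks. Islets were taken 4 weeks later, dissociated with trypsin and sorted into 6 plates of 384 wells, 3 plates per operation. Every mouse thus carried the same alleles and received the same drug, and the operation is what differed. The reporter marks cells in which the Sox9-driven recombinase was active, and their descendants; in the adult pancreas Sox9 is known from duct cells. Sham plate 1 and ppx plate 1 hold tomato-positive cells, sham plate 3 and ppx plates 2 and 3 hold tomato-negative cells, and sham plate 2 holds positive cells in its first 4 rows and negative cells in the rest. The labels do not say which pancreas filled which plate, so p-values measure only the spread between plates, which may be technical. That spread was estimated over many genes together.

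Immediate early genes are switched on within minutes of a stimulus, from factors already present in the cell and without new protein synthesis. Fos and Fosb proteins pair with Jun or Junb to form the transcription factor AP-1, Egr1, Klf2 and Klf6 are zinc-finger transcription factors, and Atf3 is a stress-induced factor of the ATF family. Zfp36 speeds the decay of AU-rich mRNAs, and Nfkbia encodes the inhibitor that holds NF-kB in the cytoplasm and is itself an NF-kB target. In islets these genes respond to glucose and depolarisation, and in many tissues also to enzymatic dissociation.

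The promoters of the members that the results turn on are shown first, because they carry known inputs of these genes. RefSeq promoters on GRCm38.p6 were found for 9 of the 10 members, Egr1 being the exception. The 150 bases before the start site are printed 5' to 3' on the gene's strand, with motif matches in capitals. Fos lies at chr12:85473890-85477273 on the plus strand, Jun at chr4:95049034-95052222, Atf3 at chr1:191170296-191218039 and Nfkbia at chr12:55489410-55492647, all but Fos on the minus strand, in GENCODE on the GRCm38 assembly. The Atf3 entry belongs to an inner start site of the gene, and its last bases overlap an annotated exon.
Fos, chr12:85473740-85473889: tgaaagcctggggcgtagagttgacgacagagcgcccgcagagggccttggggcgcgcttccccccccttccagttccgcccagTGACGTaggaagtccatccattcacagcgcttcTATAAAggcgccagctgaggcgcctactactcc
Jun, chr4:95052223-95052372: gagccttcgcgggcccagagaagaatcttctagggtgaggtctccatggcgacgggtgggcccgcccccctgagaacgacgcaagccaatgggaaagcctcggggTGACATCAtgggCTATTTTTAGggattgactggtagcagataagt
Atf3, chr1:191183334-191183483: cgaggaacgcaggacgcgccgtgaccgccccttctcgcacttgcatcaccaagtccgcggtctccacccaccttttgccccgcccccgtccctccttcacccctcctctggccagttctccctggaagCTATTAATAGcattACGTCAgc
Nfkbia, chr12:55492648-55492797: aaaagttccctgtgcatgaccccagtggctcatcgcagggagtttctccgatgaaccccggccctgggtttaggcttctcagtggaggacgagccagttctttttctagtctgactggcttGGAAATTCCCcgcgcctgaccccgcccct
The capitals in Fos mark a cAMP response element core (TGACGT) and a TATA box (TATAAA). In Jun they show an AP-1/ATF variant (TGACATCA) and a MEF2 site, in Atf3 a MEF2 site and the core of the cAMP response element read on the other strand (ACGTCA), and in Nfkbia an NF-kB site. All motifs were searched on both strands over 250 bases before the start. Beyond the printed bases or genes, Fos and Fosb also held an NF-kB site, which was thus present in 3 of the 9 members. The AP-1 site TGANTCA (N is any base) was found in 0 of 9 members and in 6.75% of all promoters. Among 32851 promoters the cAMP response element core was present in 6.47%, TGACATCA in 2.93%, the MEF2 site in 2.92%, the NF-kB site in 7.25% and TATAAA in 12.4%. Of the 9 members 2 held the cAMP response element core, 2 TGACATCA, 3 the MEF2 site and 1 TATAAA. The CArG box, an A- and T-rich stretch between CC and GG, was in 1 of 9 members (Zfp36) and in 1.47% of promoters. Sites further than 250 bases before the start were not searched. These matches describe the letters of the window and do not show that a factor binds there.

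Levels are given as the percent of a well's UMIs. Wells with at least 500 UMIs and at most 20% mitochondrial UMIs were kept, 2115 of 2304, and were grouped by the hormones they carry: 3% insulin (Ins1 and Ins2 summed), 1% somatostatin (Sst), 2% glucagon (Gcg) or 2% pancreatic polypeptide (Ppy). This gave 1010 insulin-only wells, 536 somatostatin-only, 157 glucagon-only, 62 pancreatic polypeptide-only and 170 joined wells with insulin and somatostatin, and 56 with somatostatin and glucagon. Between 339 and 362 wells were kept per plate. Markers of each cell type followed the hormone groups: the beta-cell list summed to a median of 25.8% of UMIs in insulin-only wells and 2.21% in somatostatin-only wells, and the alpha-cell list to 27.2% in glucagon-only wells and 0.422% in insulin-only wells. The Ppy threshold was applied only to wells below the other thresholds, so the names of the other groups do not exclude Ppy. Somatostatin-only wells carried a median of 5.38% of UMIs from Ppy and Pyy, and glucagon-only wells 0.81%. Median depth differed between groups, from 1582 UMIs in somatostatin-only wells to 3486 in glucagon-only, 4256 in insulin-only and 6042 in joined insulin and somatostatin wells.

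Among the 5 hormone groups present on all 6 plates, glucagon-only wells carried the most of the 10 genes and insulin-only wells the least. The 10 genes summed to 1.06% ± 0.0901 of UMIs in glucagon-only wells (SD, n = 6 plates), 0.786% ± 0.177 in pancreatic polypeptide-only wells, 0.732% ± 0.134 in somatostatin-only wells, 0.567% ± 0.135 in joined insulin and somatostatin wells and 0.423% ± 0.0427 in insulin-only wells. In each of these 4 groups the sum lay above that of insulin-only wells on 6 of 6 plates. Pancreatic polypeptide-only and somatostatin-only wells, next to each other in this order, differed by less than the spread between plates. Wells with somatostatin and glucagon had 0.826% ± 0.146 on the 3 plates with at least 5 of them. The order was the same per non-hormone UMI, at 1.54%, 1.34%, 0.955%, 0.787% and 0.598%. Counted without scaling, a glucagon-only well held 46.3 ± 16.2 UMIs of the 10 genes, an insulin-only well 21.2 ± 4.22 and a somatostatin-only well 16.9 ± 10.2 (SD, n = 6 plates). By number, somatostatin-only and insulin-only wells differed by less than the spread between plates.

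**Figure D1:**
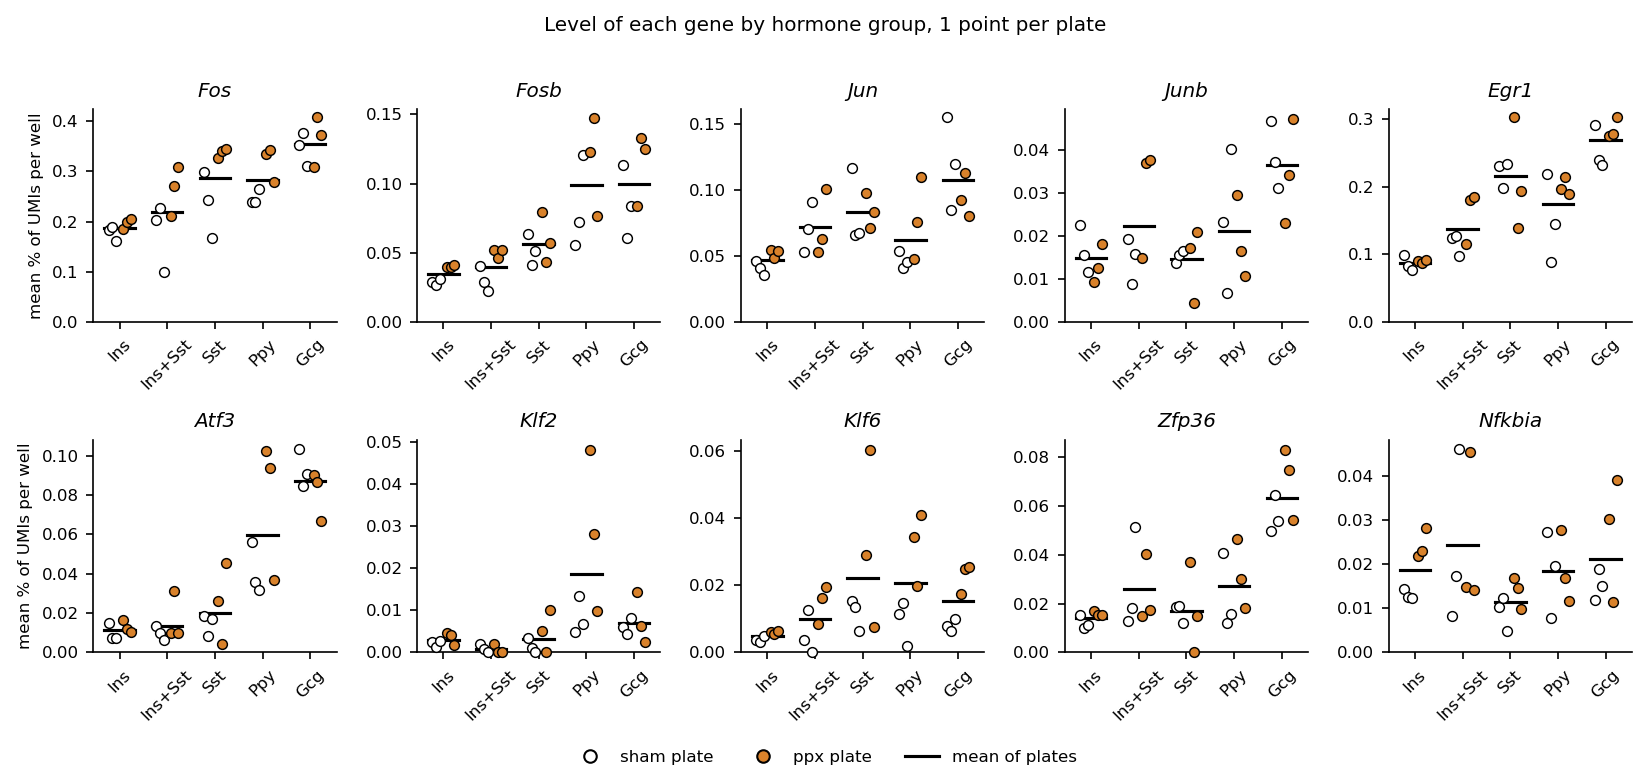
Mean percent of UMIs per well (y axis) for each of the 10 genes in insulin-only (Ins), joined (Ins+Sst), somatostatin-only (Sst), pancreatic polypeptide-only (Ppy) and glucagon-only (Gcg) wells; each point is 1 plate, open for sham and filled for ppx, and the line is the mean of 6 plates. Atf3 and Zfp36 stood highest in glucagon-only wells, and every glucagon-only plate lay above every insulin-only plate for both.

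The AP-1 genes rose from insulin-only to glucagon-only wells. Fos was 0.183%, 0.188% and 0.162% of UMIs in insulin-only wells of sham plates 1 to 3 and 0.186%, 0.199% and 0.204% on ppx plates 1 to 3. In glucagon-only wells the same plates had 0.353%, 0.376% and 0.312%, followed by 0.309%, 0.408% and 0.373%. The plates of the 2 groups did not overlap. Tests on UMIs summed per group and plate (edgeR quasi-likelihood, plate as a term, adjusted over 5483 genes) called 9 of the 10 members higher in glucagon-only than in insulin-only wells, where 20.9% of all genes were called (9.79% higher, 11.1% lower). The members' median log2 fold change was 1.48, beside -0.10 over all genes tested. Fos was higher by 0.88 ± 0.18 (log2, SE, adjusted p = 1.84e-05), Fosb by 1.44 ± 0.16, Jun by 1.20 ± 0.16 and Junb by 1.19 ± 0.19. All 13 alternative analyses of this comparison called the same number of members.

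Atf3 showed the widest gap of the 10 members between glucagon-only and insulin-only wells. In insulin-only wells it was 0.0152%, 0.00717% and 0.00712% of UMIs on sham plates 1 to 3 and 0.0168%, 0.0121% and 0.0105% on ppx plates 1 to 3, and in glucagon-only wells 0.103%, 0.0845% and 0.0907% and then 0.0902%, 0.0867% and 0.0670%. The lowest glucagon-only plate was thus above the highest insulin-only plate. Its log2 fold change was 3.19 ± 0.17 (SE, edgeR adjusted p = 1.28e-72). At an equal depth of 1000 UMIs, an Atf3 UMI was found in 44.5% of 155 glucagon-only wells and 7.71% of 998 insulin-only wells. Zfp36 followed. In glucagon-only wells it was 0.0498%, 0.0647% and 0.0540% on sham plates 1 to 3 and 0.0831%, 0.0746% and 0.0542% on ppx plates 1 to 3, all above the insulin-only plates, which lay between 0.0102% and 0.0169%. Its mean was 0.0634% ± 0.0132 in glucagon-only and 0.0140% ± 0.00267 in insulin-only wells (SD, n = 6 plates), with a log2 fold change of 2.31 ± 0.17 (SE, edgeR adjusted p = 1.31e-38). Egr1 lay between 0.231% and 0.303% on the glucagon-only plates and between 0.0770% and 0.0989% on the insulin-only plates, without overlap. It was higher by 1.53 ± 0.17, Klf2 by 1.80 ± 0.35 and Klf6 by 1.58 ± 0.27. Nfkbia was the member that did not pass (log2 0.19 ± 0.21, adjusted p = 0.618).

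Somatostatin-only wells also carried more than insulin-only wells, with a different emphasis. Klf6 was 0.0154%, 0.0137% and 0.00647% in somatostatin-only wells of sham plates 1 to 3 and 0.0289%, 0.0604% and 0.00764% on ppx plates 1 to 3, against 0.00317% to 0.00650% in insulin-only wells, and the value of 0.0604% rests on 9 wells and 10 UMIs. In all, 7 of the 10 members were called higher and none lower, where 18.9% of all genes were called (8.21% higher, 10.7% lower). The members' median was 0.82 beside -0.06 over all genes. Klf6 led at 2.08 ± 0.25 (log2, SE, edgeR adjusted p = 2.28e-15), followed by Klf2 at 1.28 ± 0.36, Atf3 at 1.19 ± 0.21, Egr1 at 1.03 ± 0.18, Fosb at 0.83 ± 0.17, Jun at 0.81 ± 0.16 and Zfp36 at 0.70 ± 0.21. The Zfp36 call was lost in 4 of 13 alternatives, and Zfp36 lay above insulin-only wells on 4 of 6 plates; the Fosb and Jun calls were each lost in 1. Klf2 rested on few UMIs, with 0 on sham plate 3 and ppx plate 2, and was 0.48 without ppx plate 3 (adjusted p = 0.513). Fos had 0.36 ± 0.18 (edgeR adjusted p = 0.176), passed in 5 of 13 alternatives and was higher on 6 of 6 plates. Junb had -0.01 ± 0.22. Nfkbia went the other way: it was lower than in insulin-only wells of the same plate on 6 of 6 plates, at 0.0115% ± 0.00417 against 0.0187% ± 0.00648 (SD), with a log2 fold change of -0.57 ± 0.23 that did not pass (adjusted p = 0.0639) and that passed in 5 of 13 alternatives.

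Set directly against somatostatin-only wells, glucagon-only wells had 5 members called higher, where 9.01% of all genes were called (4.98% higher, 4.03% lower). Atf3 was higher by 2.00 ± 0.19 (log2, SE, edgeR adjusted p = 1.48e-22), Zfp36 by 1.61 ± 0.20, Junb by 1.20 ± 0.23, Nfkbia by 0.75 ± 0.26 (adjusted p = 0.0492) and Fosb by 0.61 ± 0.17. Atf3, Zfp36 and Junb passed in all 13 alternatives, Nfkbia in 5 and Fosb in 9. Without sham plate 1 the count was 3. Klf6 was the one member with a negative value, -0.50 ± 0.27, which did not pass.

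Pancreatic polypeptide-only wells had 6 members called higher than insulin-only wells, where 10.3% of all genes were called (2.77% higher, 7.53% lower). Klf2 was higher by 2.56 ± 0.38, Atf3 by 2.30 ± 0.23, Klf6 by 2.00 ± 0.32, Fosb by 1.46 ± 0.18, Zfp36 by 0.99 ± 0.26 and Egr1 by 0.84 ± 0.19 (log2, SE, edgeR). In these 62 wells Klf2 rested on 37 UMIs and Klf6 on 48. The members' median was 0.92 beside -0.36 over all genes. Zfp36 was lost in 2 and Egr1 in 1 of 13 alternatives, while Fos passed in 6 and Jun in 5. In wells with insulin and somatostatin together, 0 of 10 members were called against insulin-only wells by edgeR and 0 by DESeq2, where edgeR called 1.93% of all genes (1.26% higher, 0.675% lower). 1 member had an unadjusted p under 0.05.

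**Figure D2:**
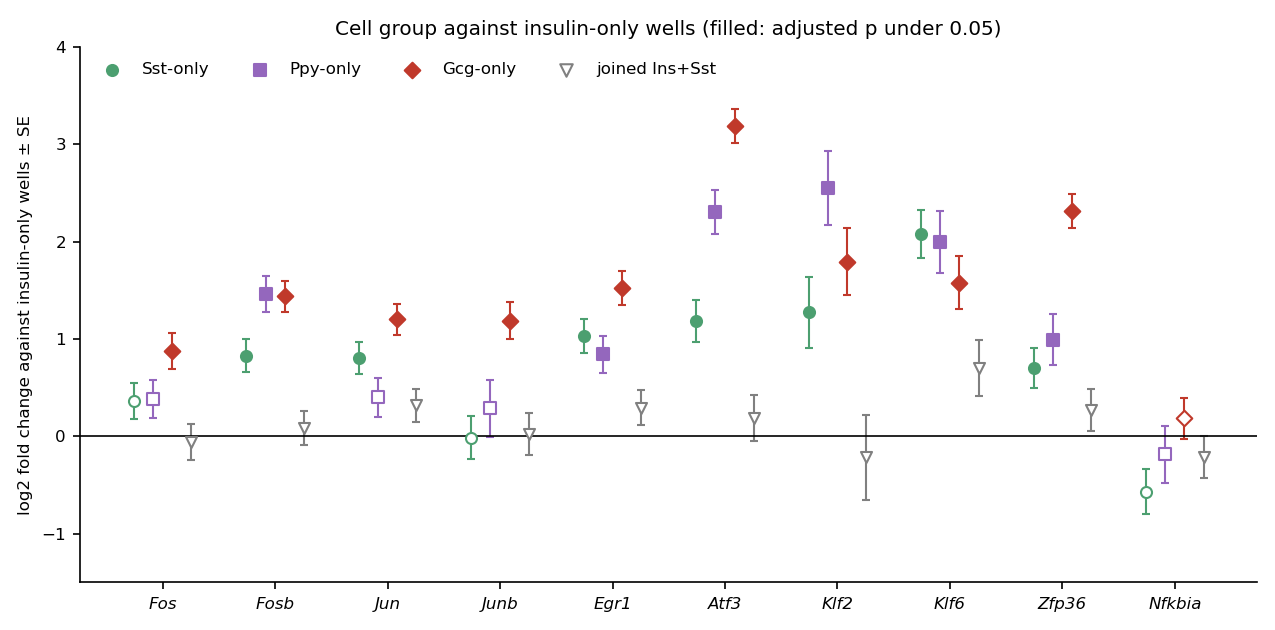
Log2 fold change against insulin-only wells with its SE (y axis) for the 10 genes (x axis) in somatostatin-only, pancreatic polypeptide-only, glucagon-only and joined wells; filled symbols passed at an adjusted p under 0.05. Atf3 reached 3.19 in glucagon-only wells. The joined wells ran from -0.22 (Klf2) to 0.70 (Klf6), and no member passed there.

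Other immediate early genes moved in part with the members. From a list of 42 such genes 32 were tested, and 10 were higher and 4 lower in glucagon-only than in insulin-only wells. Klf4, a zinc-finger factor related to Klf2, was higher by 3.31 ± 0.26, Cyr61, a secreted matrix protein, by 1.95 ± 0.66, Gadd45b by 1.64 ± 0.31, Ier2 by 1.41 ± 0.17 and Dusp1, a phosphatase that inactivates MAP kinases, by 0.98 ± 0.16 (log2, SE, edgeR). Bhlhe40 was lower there, at -4.51 ± 1.26. Somatostatin-only wells had 5 of these genes higher and 8 lower than insulin-only wells. Socs3, an inhibitor of cytokine signalling, was -3.78 ± 0.53, Ier5 -2.25 ± 0.49, Btg1 -1.79 ± 0.35 and Dusp1 -0.72 ± 0.19, while Cyr61 was 3.59 ± 0.48 and Ier2 1.07 ± 0.18. The list's median log2 fold change was 0.36 in glucagon-only and -0.45 in somatostatin-only wells, beside -0.10 and -0.06 over all genes.

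The mix of members differed between cell types. UMIs do not depend on transcript length, since each mRNA is counted once at its 3' end, so shares can be compared. Egr1 had 0.486 ± 0.0540 UMIs per Fos UMI in insulin-only wells, 0.768 ± 0.0936 in glucagon-only wells and 0.808 ± 0.326 in somatostatin-only wells (SD, n = 6 plates). The ratio in glucagon-only wells was 0.631 or more on each plate and in insulin-only wells 0.565 or less, so these plates did not overlap, whereas somatostatin-only plates ran from 0.463 to 1.38. Fos made up 44.3% of the members' UMIs in insulin-only and 33.4% in glucagon-only wells, and Atf3 2.55% and 8.26%.

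Hormone-low wells are few and shallow. The 47 with endothelial markers (Plvap, Kdr, Pecam1 and others, median depth 836 UMIs) had Klf2, a factor known from endothelium under flow, at 0.0764%, 0.0429%, 0.0645% and 0.113% on sham plates 2 and 3 and ppx plates 2 and 3. These values rest on 4, 10, 4 and 6 UMIs. Klf2 was higher than in insulin-only wells by 3.40 ± 0.48 (log2, SE, edgeR adjusted p = 2.65e-11), and the p was 0.0501 with wells of at least 1000 UMIs. The median of all genes was -0.70 in this comparison. Fosb was -2.51 ± 0.52, Fos -1.28 ± 0.28 and Egr1 -0.80 ± 0.29, all called lower, where 27.6% of all genes were called (9.34% higher, 18.2% lower). The balance turned with the scaling: against 512 genes higher and 999 lower here, DESeq2 called 614 higher and 270 lower, with 3 members higher and 0 lower, and edgeR with DESeq2's scaling 685 higher and 436 lower, with 3 members higher and 1 lower. With the scaling factors of DESeq2's method in edgeR, Egr1 was 0.09 and not called and Fos -0.33 and not called. As a plain share of UMIs Fos was 0.171%, 0.164%, 0.149% and 0.421% in these wells, which overlaps the insulin-only plates, so no direction is given for Fos and Egr1. Averaged over pooled wells, the 23 with immune markers had 1.19% for the 10 genes, with Zfp36 at 0.215% and Atf3 at 0.147%. The 20 with stromal markers had 0.873%. The 20 hormone-low wells that the endothelial, stromal and immune lists did not name had 1.06%. As a mean of plates, the measure used for the hormone groups, immune-marker wells had 1.31% ± 0.169 and unnamed wells 1.39% ± 0.119 (SD, 2 plates each). Both lay above the 1.06% of glucagon-only wells on 6 plates. Lists of duct and acinar genes were not used for naming. In these 20 wells the duct list (Spp1, Krt19, Sox9 and others) summed to a median of 1.79% of UMIs, against 0.0291% in insulin-only wells. The acinar list had a mean of 1.61% and a median of 0 there. These last groups were not tested here; immune-marker wells reached 5 wells on 2 plates.

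Wells of one type differed widely in these genes. In insulin-only wells the sum ran from 0.0990% at the 10th percentile to a median of 0.391% and 0.791% at the 90th, in somatostatin-only wells from 0.133% to 0.763% and 1.58%, and in glucagon-only wells from 0.420% to 0.995% and 1.71%. Wells with at least 1% of their UMIs from the 10 genes made up 3.56% of insulin-only, 33.2% of somatostatin-only and 49.7% of glucagon-only wells. Shallow wells scatter more by counting, so wells were also thinned to 1000 UMIs each, which left out 12 insulin-only, 57 somatostatin-only and 2 glucagon-only wells. Variance over mean, which is 1 for counting alone, was then 2.30 for the sum in insulin-only wells (4 plates with at least 50 wells, 2.18 to 2.56) and 3.96 in somatostatin-only wells (3 plates, 3.54 to 4.25). For Fos it was 1.55 and 2.29. The ratio rises with the mean at a given relative spread, so it is not compared between genes or groups. The spread of Fos beyond counting was a coefficient of variation of 0.538 ± 0.0528 in insulin-only and 0.667 ± 0.0481 in somatostatin-only wells (SD over plates). The tenth of wells with the most of the members' UMIs held 25.6% of them in insulin-only and 24.9% in somatostatin-only wells.

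**Figure D3:**
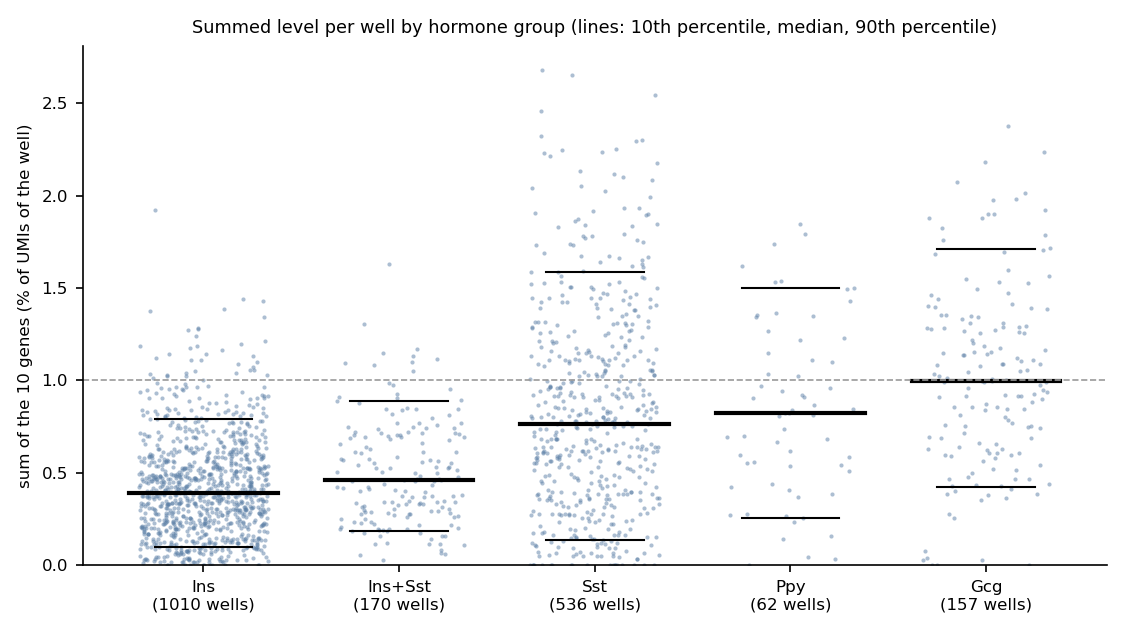
Sum of the 10 genes in percent of a well's UMIs (y axis) for each well (points) of 5 hormone groups (x axis), with the 10th percentile, median and 90th percentile as lines and 1% as a dashed line. The medians rise from 0.391% in insulin-only to 0.995% in glucagon-only wells, and single wells of every group overlap.

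Fos varied together with Egr1, Jun and Fosb from well to well. Pearson's r was computed on log2 of thinned UMIs plus 1, over the wells of 1 group on 1 plate, and averaged over plates; wells of a plate share a library, so r is a description. In insulin-only wells (948 wells, 4 plates) r was 0.240 for Fos and Egr1 (0.172 to 0.287 between plates), 0.226 for Fosb and Egr1, 0.200 for Fos and Jun and 0.193 for Fos and Fosb. Fos and Jun ranged from 0.0128 to 0.331 between plates, and Fosb and Jun had an r of 0.0477. In somatostatin-only wells (442 wells, 3 plates) r was 0.449 for Fos and Egr1, 0.394 for Fos and Jun, 0.378 for Fos and Fosb and 0.360 for Fosb and Egr1. Over all pairs of genes with a mean of at least 0.1 the median lay between -0.00883 and -0.00155 on these plates, and the 95th percentile between 0.102 and 0.247. These pairs were not matched for abundance to Fos and Egr1, which had means of 1.91 and 0.848 thinned UMIs in insulin-only wells. The median over the 45 pairs of members was 0.0568 in insulin-only and 0.128 in somatostatin-only wells. A sparser gene gives a lower r at the same depth, and the members' mean was 4.14 thinned UMIs in insulin-only and 7.75 in somatostatin-only wells, so the 2 groups' values of r are not compared.

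**Figure D4:**
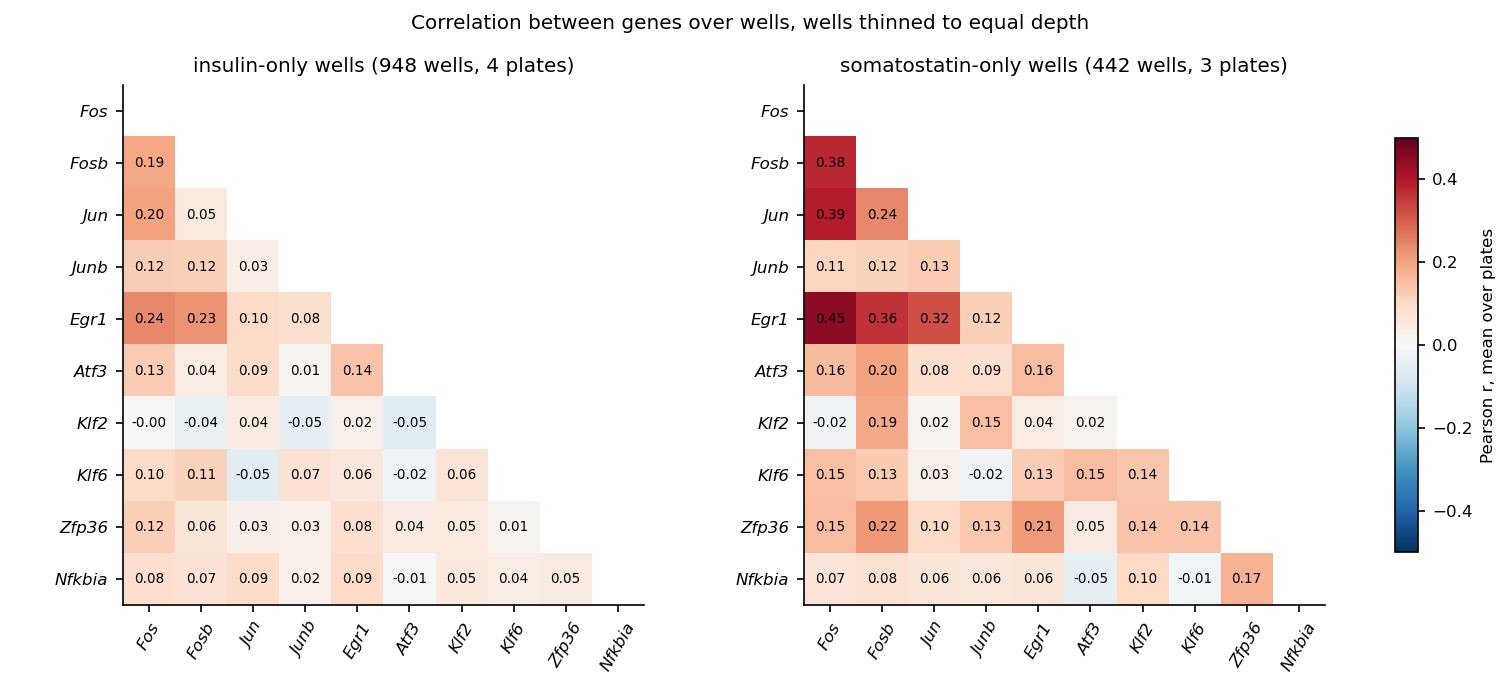
Pearson's r between each pair of the 10 genes over wells thinned to 1000 UMIs, averaged over plates (colour and number), in insulin-only wells (left) and somatostatin-only wells (right). The pair of Fos and Egr1 stands highest in both, at 0.240 and 0.449, and pairs with Klf2 lie between -0.0516 and 0.0637 in insulin-only wells.

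Each member was also set against the sum of the others, where r again depends on how abundant the member is. Against the sum of the other 9, Fos had an r of 0.378 in insulin-only and 0.573 in somatostatin-only wells, Egr1 0.314 and 0.520, Fosb 0.261 and 0.449, and Jun 0.222 and 0.429. Klf2 had 0.0303 and 0.0834, and Nfkbia 0.144 and 0.0755. In glucagon-only wells only sham plate 3 had enough wells (57), and there Fosb and Atf3 had the highest r (0.560), ahead of Jun and Atf3 (0.446). Outside the members, the genes most alike to their sum in insulin-only wells, among 925 genes, included Tuba1a (r 0.230), Btg2 (0.223), Dusp1 (0.221), H3f3b (0.217), Dnajb1 (0.196), C2cd4b (0.183) and Ier2 (0.171). The median over the 925 genes was -0.00275. The named genes were picked as the highest, so lying above the 99th percentile of the same genes (0.125) was fixed in advance. In somatostatin-only wells, among 993 genes, they included Btg2 (0.318), Hspa1b (0.311), Actb (0.310), Hspa1a (0.307), Dnajb1 (0.299), Ier2 (0.250) and Dusp1 (0.241). Btg2, Dusp1 and Ier2 are immediate early genes themselves, and Hspa1a, Hspa1b and Dnajb1 encode heat shock proteins. Mitochondrial share ran opposite to the level in insulin-only wells. The third of insulin-only wells with the least mitochondrial RNA had a higher percent from the 10 genes than the third with the most. This held on 4 of 4 plates, for example 0.393% against 0.343% on sham plate 2. In somatostatin-only wells sham plate 2 went the other way, with 0.556% against 0.703%, and sham plate 1 and ppx plate 1 the same way. The groups' median mitochondrial share was 6.03% in glucagon-only, 9.17% in insulin-only and 11.9% in somatostatin-only wells. Mitochondrial UMIs are part of the total, so a higher mitochondrial share by itself lowers the percent of every other gene. The part of the mitochondrial share in the results was not tested.

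After partial pancreatectomy Nfkbia was higher in insulin-only wells. It was 0.0145%, 0.0127% and 0.0124% of UMIs on sham plates 1 to 3 and 0.0217%, 0.0229% and 0.0281% on ppx plates 1 to 3, and the operations did not overlap. The log2 fold change was 0.87 ± 0.15 (SE, edgeR adjusted p = 0.00292 over 8297 genes), and Nfkbia was the only one of 10 members called, where 0.277% of all genes were called (0.193% higher, 0.0844% lower). The same direction held within the tomato-positive plates (0.0145% and 0.0217%) and among the tomato-negative ones (0.0124% against 0.0229% and 0.0281%). The call did not hold with DESeq2 (adjusted p = 0.0529), with tomato status in the model (0.164), or without sham plate 2 (0.171), sham plate 3 (0.118), ppx plate 2 (0.0518) or ppx plate 3 (0.269), with log2 fold changes from 0.70 to 0.97 over all 16 alternatives.

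No other member passed. In insulin-only wells 7 of 10 members, Nfkbia among them, had an unadjusted edgeR p under 0.05, where 735 of 8297 genes had. Fosb was 0.0289%, 0.0271% and 0.0310% on sham plates and 0.0396%, 0.0395% and 0.0412% on ppx plates, without overlap, and its log2 fold change of 0.33 ± 0.14 did not pass (edgeR adjusted p = 0.480). In all, 4 of 10 members (Fosb, Jun, Klf6 and Nfkbia) were higher on every ppx plate than on every sham plate and none lower, where 7.12% and 5.09% of all genes were. Klf2 had 1.04 ± 0.35, Klf6 0.58 ± 0.24, Atf3 0.56 ± 0.20 and Zfp36 0.41 ± 0.17, while Fos had 0.09 ± 0.14, Egr1 -0.00 ± 0.15 and Junb -0.04 ± 0.18. Of the 15 other NF-kB genes on a fixed list 5 were tested and 0 called by edgeR; the highest was Tnfaip3, an NF-kB target that restrains the pathway, with 1.25 ± 0.38 (adjusted p = 0.208). Of the other immediate early genes 30 were tested and 0 called, with a median of 0.11.

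**Figure D5:**
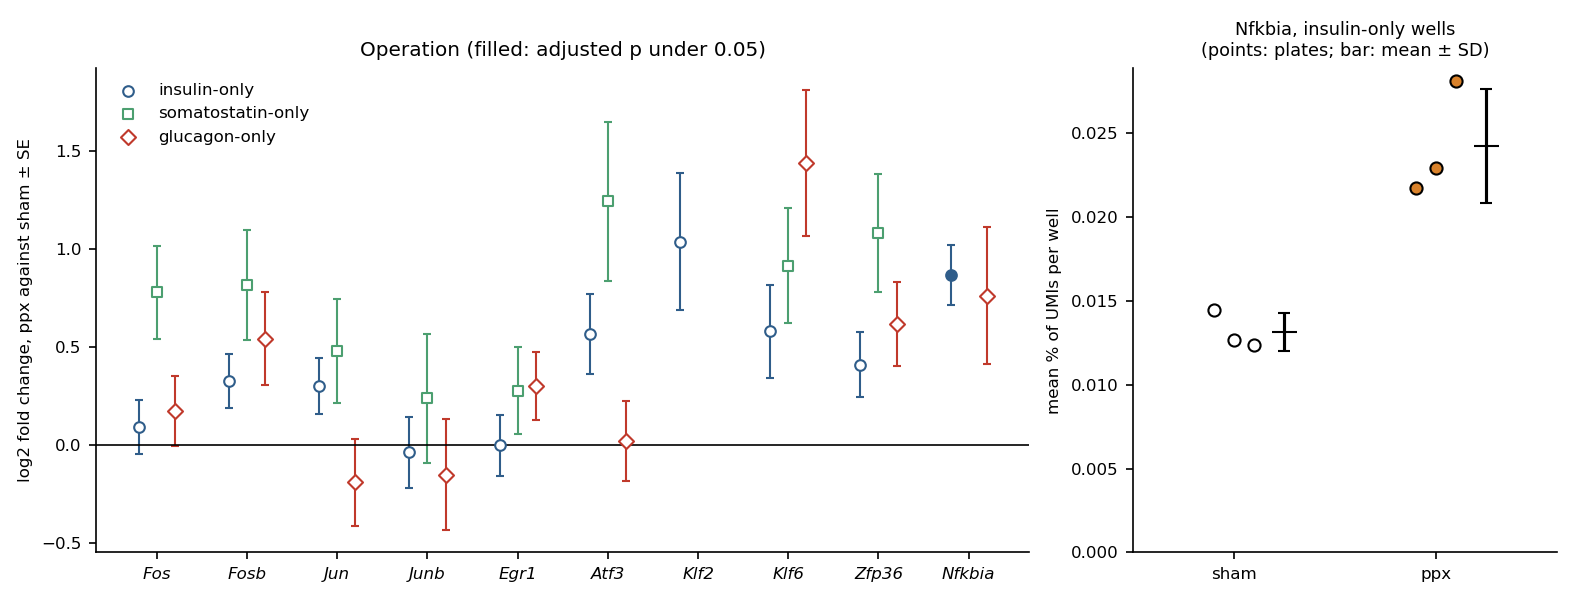
Left, log2 fold change of ppx against sham with its SE (y axis) for the 10 genes (x axis) in 3 hormone groups, filled where the adjusted p was under 0.05 and absent where a gene was not tested. Right, Nfkbia as mean percent of UMIs per insulin-only well on each plate, with mean ± SD; the 3 ppx plates, from 0.0217% to 0.0281%, lie above the 3 sham plates.

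In somatostatin-only wells no operation effect passed, with ppx plates 2 and 3 holding 9 and 11 wells. Fos was 0.299%, 0.243% and 0.168% on sham plates 1 to 3 and 0.327%, 0.340% and 0.345% on ppx plates 1 to 3, without overlap. This was the only one of the 10 members without overlap there, where 3.97% of all genes were higher and 4.97% lower on every ppx plate. Its log2 fold change was 0.78 ± 0.24 (edgeR adjusted p = 0.404). Of the 8 members tested 0 were called, where 0.11% of 906 genes were. An unadjusted edgeR p under 0.05 was found for 5 members and for 35 of 906 genes. All 8 fitted values, which rest on UMIs summed over wells, were positive. The mean of plates, which weights each plate alike, did not share that direction for every member: Egr1 was 0.221% on sham and 0.211% on ppx plates, Junb 0.0152% and 0.0142%, Jun 0.0833% and 0.0844%, and Zfp36 0.0166% and 0.0174%. DESeq2 called 0. Without ppx plate 2 edgeR called 3 of 9 members tested (Fosb, Atf3 and Zfp36), beside 9 of 1902 genes. Without both tomato-positive plates only 4 members were tested, and it called Fos, Fosb and Jun, beside 10 of 316 genes. The filter thus limited which members could be called in both. Fosb was called in both.

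In glucagon-only wells Klf6 had the largest change. It was 0.00800%, 0.00646% and 0.0100% on sham plates 1 to 3 and 0.0174%, 0.0249% and 0.0255% on ppx plates 1 to 3, without overlap, and these values rest on 7 to 19 UMIs per plate. It was the only member higher on every ppx plate, where 3.95% of all genes were higher and 9.13% lower. Its log2 fold change of 1.44 ± 0.37 did not pass (edgeR adjusted p = 0.0723). Of 9 members tested 0 were called by edgeR and 0 by DESeq2, where edgeR called 0.817% of 734 genes (0.545% higher, 0.272% lower). An unadjusted edgeR p under 0.05 was found for 4 members and for 58 of 734 genes. Klf6 passed with lower hormone thresholds (0.0293), and Klf6 and Fosb passed without the tomato-positive plates (0.0248 and 0.0152).

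The operation effect was not shown to differ between cell types. An interaction between operation and cell type, insulin-only against somatostatin-only wells, was called for 0 of 10 members by edgeR and for 0 by DESeq2, where edgeR called 0.0405% of 4937 genes (0.0203% higher, 0.0203% lower), and 1 member had an unadjusted p under 0.05. That member was Atf3, whose change was more positive in somatostatin-only wells by 1.24 ± 0.45 (log2, SE), and from -0.09 to 1.78 over 13 alternatives. For Nfkbia the difference between the 2 changes was 0.14 ± 0.49 on the log2 scale (SE). All 10 differences were above 0, with a median of 0.59 beside -0.10 over all genes. Tomato status gave 0 of 10 members in insulin-only wells (0.0779% of 8984 genes) and 0 of 7 in somatostatin-only wells (0.259% of 386 genes) with edgeR, by DESeq2 0 in each, and 2 and 0 members had an unadjusted p under 0.05. The nearest were Egr1 at 0.39 ± 0.14 and Atf3 at 0.59 ± 0.28 in insulin-only wells, positive against negative plates. The mixed plate was left out of these tests, and 2 positive plates were set against 3 negative ones.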

How the data were processed

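Each plate came as a table of UMI counts by gene and well, deposited by the authors without normalisation. The submitters' processing notes name HISAT 0.1.6 and mm10. How UMIs were assigned to genes, and from which annotation, is not given in the sources used here. ERCC spike-in rows were left out. Percentages are a gene's UMIs over all UMIs of the well except ERCC, the gene itself included. Wells under 500 UMIs (96) or over 20% mitochondrial UMIs (93) were left out, and plate totals ranged from 1250861 to 1508513 UMIs. Doublets were not removed. For each group, a plate's wells were added up where it had at least 5, and these sums were tested with edgeR 4.0.16 (R 4.3.3, quasi-likelihood test after TMM scaling and filterByExpr, Benjamini-Hochberg adjustment over all genes, threshold 0.05), with DESeq2 1.42.0 as an alternative. Cell types were compared with the plate as a term. The test shares the spread between plates across genes. In the cell type and interaction fits a gene's own spread had almost no weight in its p. Small p-values there do not measure how steadily that gene behaved over the plates. On simulated counts for the operation in insulin-only wells (7845 genes), 55.4% of 92 genes changed by log2 1 and 100% of 90 changed by log2 2 were recovered, with 10 false calls. The simulated counts had the same fixed spread for all genes and no effect of tomato status. The recovery on the real plates may therefore differ.

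The alternatives were another scaling, no filter on low counts, hormone genes left out, at least 1000 UMIs per well, other hormone thresholds, other thinning depths, tomato status and the replicate number as terms, and each plate left out. Named genes are the 10 members, called genes of the fixed lists up to 6 per comparison, and the 8 genes most alike to the members' sum, of which 1 is not reported here. The members and lists were chosen with earlier results of these data known. Gene positions come from GENCODE, and promoters from RefSeq.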

Additional observations from a re-analysis of the deposited data

How the results depend on the processing

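Recomputed under the alternatives, 160 counts and values of the comparisons stayed close to the reported one, counts within 1.5 times; among these, pancreatic polypeptide-only wells had 4 to 8 members called instead of 6, and somatostatin-only against insulin-only wells 5 to 9 instead of 7. Of single members, 38 values lost and 50 gained a call. The larger changes follow. DESeq2 called 0 members instead of 1 for the operation in insulin-only wells, and so did the model with tomato status. It called 3 instead of 5 members between glucagon-only and somatostatin-only wells, as did the analysis with no filter on low counts, and wells of at least 1000 UMIs gave 8. With no filter, 4 instead of 7 members were called between somatostatin-only and insulin-only wells. Leaving out 1 plate at a time gave 0 to 1 members for the operation in insulin-only wells, 0 to 3 in somatostatin-only wells and 3 to 6 between glucagon-only and somatostatin-only wells. Without both tomato-positive plates 3 of 4 members tested were called for the operation in somatostatin-only wells and 2 members in glucagon-only wells. Lower hormone thresholds gave 1 in glucagon-only wells. Higher thresholds gave 1 member (Egr1) for tomato status in insulin-only wells. In the wells with endothelial markers, 2 instead of 4 members were called with at least 1000 UMIs, and Egr1 turned from -0.80 to 0.0928 under DESeq2 and to 0.0929 under its scaling in edgeR. The cause of these changes was not tested.

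The Fos coefficient of variation was 0.652 instead of 0.538 when thinned to 500 UMIs. The r of Fos and Egr1 in insulin-only wells was 0.112 at 500 UMIs, 0.387 at 2000 UMIs and 0.444 on unthinned percentages, against 0.240 at 1000, so its size is tied to the depth chosen.

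Same-numbered plates did not deviate together (r of 0.0171 to 0.0243 in insulin-only, -0.00971 to 0.108 in somatostatin-only and -0.00484 to 0.0530 in glucagon-only wells), so the numbers were not taken as pairs. With the replicate block edgeR called 30 genes instead of 23 in insulin-only wells with 1 member, 4 instead of 1 in somatostatin-only wells with 0 members, and 0 instead of 6 in glucagon-only wells with 0 members.

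Counts over all genes moved further. For the operation in insulin-only wells 23 genes were called, against 9 by DESeq2, 67 with no filter, 48 with lower and 13 with higher hormone thresholds, 10 with tomato status, 64 without the tomato-positive plates and 10 to 49 leaving out a plate (10 without sham plate 3, 49 without ppx plate 1). In somatostatin-only wells 1 gene was called, against 2 with no filter, 3 with tomato status, 10 without the positive plates and 9 without ppx plate 2. In glucagon-only wells 6 were called, against 1 by DESeq2 and with higher thresholds, 12 with no filter, 10 with tomato status, 13 without the positive plates and 1 without ppx plate 2. The interaction had 2, against 0 by DESeq2, with no filter or at 1000 UMIs. Somatostatin-only against insulin-only wells had 1038, against 613 without sham plate 1 and 649 without sham plate 2, glucagon-only against insulin-only 1145, against 762 without sham plate 2, and glucagon-only against somatostatin-only 494, against 303 to 324 without one of these 2 plates. Joined wells had 106, against 59 without sham plate 2, pancreatic polypeptide-only wells 565, against 981 with no filter, and wells with endothelial markers 1511, against 884 by DESeq2, 939 with lower thresholds and 497 at 1000 UMIs. Tomato status in insulin-only wells had 7, against 0 with no filter, 3 without hormone genes, 89 with higher thresholds and 40 without sham plate 1.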
